A study of Mus musculus with 10 samples.

Results

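The genes described here mark the inner root sheath and the companion layer of the hair follicle. They are the type I keratins *Krt25*, *Krt26*, *Krt27* and *Krt28*, the type II keratins *Krt71*, *Krt72*, *Krt73* and *Krt75*, trichohyalin (*Tchh*) and the transcription factor *Gata3*. They were chosen by name, as known genes of these layers, and make up 10 of the 24454 genes in the count table. All 10 passed the filter on low counts, which kept 15543 genes, and each was well counted in both groups.

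RNA was sequenced from whole-thickness back skin, in 5 samples from WT mice and 5 from *Zfp36*ΔARE mice, both labelled C57BL/6, with littermates as controls. *Zfp36*ΔARE mice carry a germline deletion of an instability motif in the 3′-UTR of *Zfp36* at its own locus, in every tissue. *Zfp36* encodes tristetraprolin (TTP), a protein that binds AU-rich elements in mRNA and speeds their decay. Both groups received the same chemical carcinogenesis protocol on shaved back skin from 7 weeks of age, with 400 nmol of the mutagen DMBA once and then 10 nmol of the tumor promoter TPA 2 times a week for 20 weeks, each in 0.2 ml acetone. The skin taken was treated but nontumoral, and no untreated skin was used here. Libraries held 19595035 to 36419573 counts.

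The inner root sheath is a sleeve of hardened cells that surrounds the growing hair and shapes it, and the companion layer is the single cell sheet between it and the outer root sheath. Sheath cells fill with keratin filaments made of type I and type II pairs and with trichohyalin granules. Trichohyalin is then deiminated by peptidylarginine deiminases and crosslinked to the filaments by transglutaminases. *Gata3* is required in follicle progenitors for the inner root sheath lineage to form. The sheath is built while follicles grow and is lost as they regress.

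*Zfp36* itself separated the groups, with 1824 to 2496 normalized counts in WT and 4195 to 6133 in *Zfp36*ΔARE skin (log2 fold change 1.33, SE 0.119, adjusted p = 0.0019 in the quasi-likelihood test of edgeR, adjusted over all tested genes by Benjamini-Hochberg). A normalized count is a count scaled to the mean library size of all 10 libraries with TMM factors, and all fold changes are *Zfp36*ΔARE over WT. A single principal component took up 70.9% of the variance, and WT replicates 3 and 1 lay at its far end, apart from the other 8 libraries. Y-linked counts reached 3349 to 4262 in *Zfp36*ΔARE replicates 2 to 5 and at most 1 in the other 6 libraries, so that 4 libraries of the knockin group and none of the WT group carried a Y chromosome signal. Sex is not given in the labels, and its part in the genotype differences below was not tested beyond the refits given with them.

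The 4 type I members lay side by side on mouse chromosome 11, on the minus strand, each with 8 exons. In GENCODE M21 on GRCm38 they spanned chr11:99315516-99322951 (*Krt25*), chr11:99328550-99337966 (*Krt26*), chr11:99345565-99351104 (*Krt27*) and chr11:99364872-99374903 (*Krt28*). The 4 type II members, each with 9 exons, lay within a second cluster on chromosome 15, also on the minus strand, at chr15:101563345-101573904 (*Krt75*), chr15:101733949-101743109 (*Krt71*), chr15:101776172-101786460 (*Krt72*) and chr15:101793308-101802346 (*Krt73*). *Tchh* has 2 exons at chr3:93442330-93449077 on the plus strand. *Gata3* has 6 exons at chr2:9857078-9890034 on the minus strand. Exons of *Krt75* and *Gata3* overlapped an exon of a predicted gene on the opposite strand by 129 bases and 93 bases, and the strand setting of the counting is not given in the sources used here.

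All 36 pairs of structural genes moved together across the libraries, at r from 0.97 to 1.0, so that co-movement does not mark out any pair. From each keratin cluster, the promoters of the pair of genes with the most identical bases are shown. Each runs from 250 bases before to 50 bases after the RefSeq start (GRCm38.p6, minus strand), at chr11:99322902-99323201 for *Krt25*, chr11:99351069-99351368 for *Krt27*, chr15:101743048-101743347 for *Krt71* and chr15:101802311-101802610 for *Krt73*. Capitals mark GATA-type hexamers on either strand, which are AGATAA or AGATAG and the same words with T as first letter, and TATAAA on the sense strand from 40 to 15 bases before the start.
Krt25: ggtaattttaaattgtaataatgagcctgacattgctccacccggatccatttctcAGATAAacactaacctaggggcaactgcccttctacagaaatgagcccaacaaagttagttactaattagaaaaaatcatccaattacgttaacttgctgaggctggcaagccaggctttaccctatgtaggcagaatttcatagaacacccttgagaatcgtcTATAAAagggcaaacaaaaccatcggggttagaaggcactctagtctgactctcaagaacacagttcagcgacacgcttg
Krt27: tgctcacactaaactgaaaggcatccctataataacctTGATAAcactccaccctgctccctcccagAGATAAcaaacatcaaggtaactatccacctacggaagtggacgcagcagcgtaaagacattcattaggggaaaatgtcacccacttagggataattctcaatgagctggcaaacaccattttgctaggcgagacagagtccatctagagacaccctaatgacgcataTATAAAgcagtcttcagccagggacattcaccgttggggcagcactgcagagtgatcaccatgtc
Krt71: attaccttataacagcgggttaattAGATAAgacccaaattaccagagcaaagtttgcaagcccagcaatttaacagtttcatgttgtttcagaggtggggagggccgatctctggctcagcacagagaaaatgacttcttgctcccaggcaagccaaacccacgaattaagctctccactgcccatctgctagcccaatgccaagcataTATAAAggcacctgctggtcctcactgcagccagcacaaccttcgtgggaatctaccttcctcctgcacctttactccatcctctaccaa
Krt73: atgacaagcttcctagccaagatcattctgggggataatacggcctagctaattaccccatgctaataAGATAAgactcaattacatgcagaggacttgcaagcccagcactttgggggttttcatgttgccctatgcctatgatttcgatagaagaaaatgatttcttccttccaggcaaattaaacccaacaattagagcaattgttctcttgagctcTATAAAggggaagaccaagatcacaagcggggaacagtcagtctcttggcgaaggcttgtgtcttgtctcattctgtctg

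A GATA-type hexamer was found in the 300-base windows of 6 of the 10 genes (*Krt25*, *Krt27*, *Krt71*, *Krt73*, *Tchh* and *Gata3*), against 29.8% of 32851 mouse promoters. TATAAA near the start was found in 6 of the 10 (*Krt25*, *Krt26*, *Krt27*, *Krt28*, *Krt71* and *Krt73*), against 2.1% of promoters. The homeodomain word TAATTA was in 4 of the 10 windows (5.3% of promoters), and a LEF1 word (CTTTGAA, or the same with T as last letter) in the windows of *Krt28* and *Tchh* (8.7% of promoters). Aligned end to end, the *Krt71* and *Krt73* windows were identical at 183 bases, or 61.0%, the highest of all pairs, and *Krt25* and *Krt27* at 59.3%. *Krt27* and *Krt73*, from different clusters, reached 56.7%, and the lowest pair, *Tchh* and *Gata3*, 43.3%. Promoters of other genes were not aligned, so these shares have no background. *Krt71* and *Krt73* shared the run TTGCAAGCCCAGCA, which begins at position -196 from the start of *Krt71* and at -154 from that of *Krt73*. These words were chosen after the sequences were seen, and a match is a description of letters, not a site of binding.

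TTP recognizes AU-rich sequence, written ATTTA in DNA letters, so the 3′-UTRs were read for it. It occurred in the 3′-UTRs of 4 of the 10 genes, with 6 copies in *Gata3*, 3 in *Tchh*, 2 in *Krt26* and 1 in *Krt73*, against 61.6% of 20758 genes with at least 1 copy. The longer TATTTAT was found in *Gata3* alone among the 10, against 25.4% of genes. The 3′-UTRs of the 10 genes ran from 171 bases (*Krt28*) to 1537 bases (*Krt75*), where the median over all genes was 801. These shares were not matched for length. The site in *Gata3* that holds TATTTAT and the first site of *Tchh* and of *Krt73* are shown, with ATTTA in capitals.
Gata3: ttgatggtATTTAttaaatag
Tchh: actaagccATTTAattttttg
Krt73: cctgttttATTTAccattgct

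All 10 genes were higher in *Zfp36*ΔARE skin in the fitted means, with log2 fold changes from 0.51 to 1.75 and a median of 1.33, where the median over all tested genes was 0.008. The 9 structural genes were 1.99- to 3.37-fold higher, yet none of them passed an adjusted p of 0.05 in edgeR's quasi-likelihood test. In limma-voom, which averages log values, their log2 fold changes were larger, at 1.34 to 2.85 against 1.0 to 1.75 in edgeR. *Gata3* rose by 1.42-fold (adjusted p = 0.012), below the 2-fold change that a call also required. The count of called genes among the 10 was therefore 0, where 8.31% of all tested genes were called in either direction and 1.67% as higher. At an unadjusted p under 0.05, 8 of the 10 were higher in edgeR (22.5% of all tested genes), 10 in DESeq2 (24.5%) and 8 in limma-voom (23.1%). By the full call DESeq2 gave 4 (*Krt28*, *Krt71*, *Krt75* and *Tchh*), against 2.2% of tested genes called higher, and limma-voom 0. By adjusted p alone 1 of 10 was higher, against 15.3% of all tested genes, and in 4 of 10 the lowest *Zfp36*ΔARE library lay above the highest WT library, against 11.2%.

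**Figure D1:**
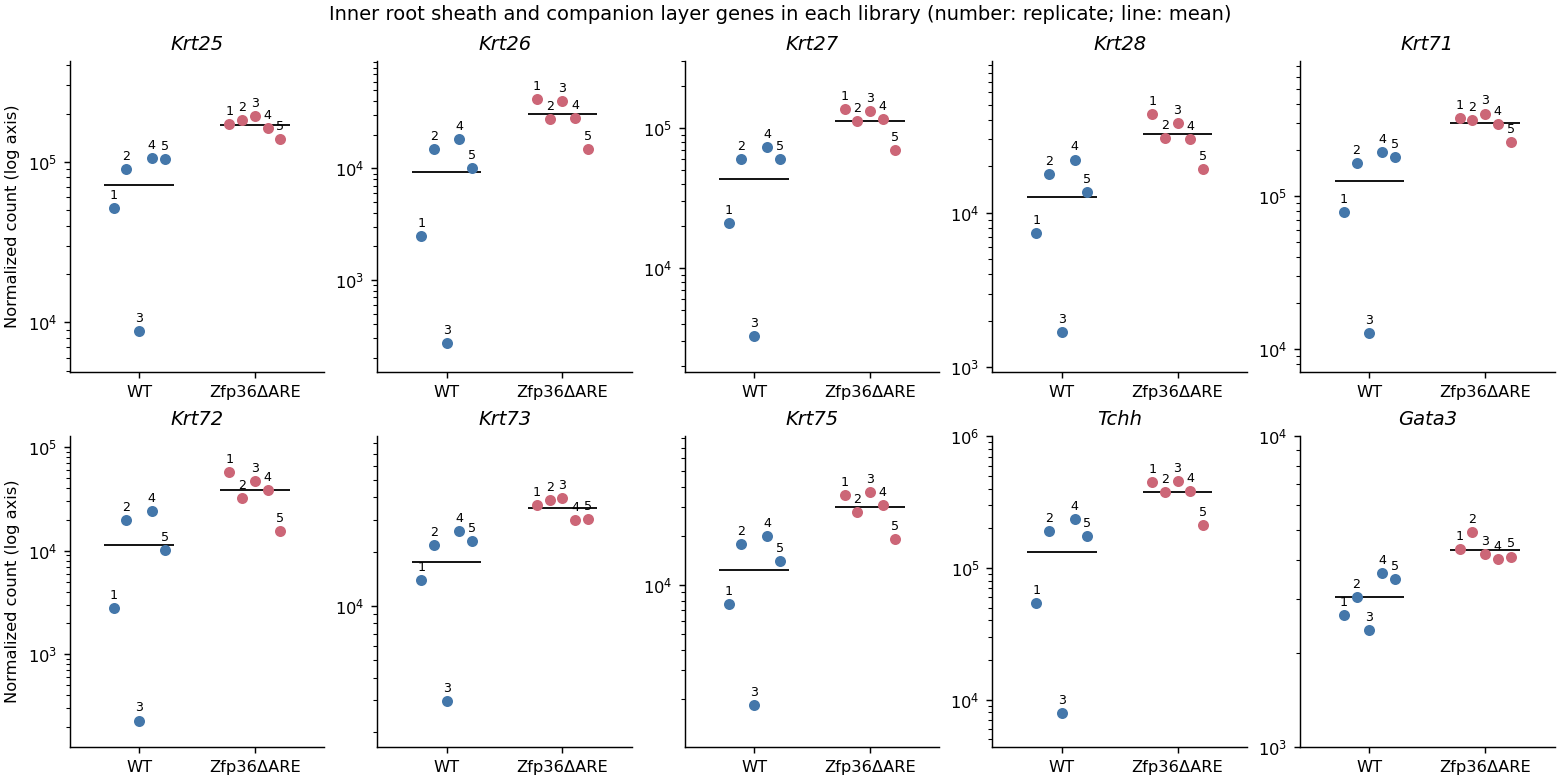
Normalized count of each of the 10 genes (log axis) in the 5 WT and 5 Zfp36ΔARE libraries, with the replicate number over each point and a line at the group mean. WT replicate 3 is the lowest library and WT replicate 1 the next lowest in all 9 structural genes, and the Zfp36ΔARE libraries spread less than the WT libraries in each gene.

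*Krt71*, the type II keratin made in all 3 layers of the sheath, had the highest level per kb of the 10 genes. It had 78220, 164300, 12766, 193644 and 180185 normalized counts in WT replicates 1 to 5 and 323662, 312295, 344893, 293197 and 223502 in *Zfp36*ΔARE replicates 1 to 5. All 5 knockin libraries were above all 5 WT libraries, but the WT values ran over more than a 10-fold range (log2 fold change 1.25, SE 0.543, adjusted p = 0.095, edgeR). *Krt25*, a type I keratin found in all layers and a partner of *Krt71*, had 51668, 90471, 8844, 105841 and 103880 normalized counts in WT and 170909, 183434, 192967, 161795 and 139567 in *Zfp36*ΔARE skin. Its groups did not overlap either, and WT replicate 3 again lay far below the rest (log2 fold change 1.23, SE 0.499, adjusted p = 0.077).

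The other type I keratins of the body of the sheath, *Krt27* and *Krt28*, overlapped between the groups because *Zfp36*ΔARE replicate 5 lay below the highest WT library. *Krt27* had 21118, 60374, 3276, 73019 and 60185 normalized counts in WT against 136909, 112288, 132126, 115811 and 69781 (adjusted p = 0.1, edgeR). In *Krt28* the WT values were 7419, 17866, 1685, 22075 and 13684 and the knockin values 43417, 30536, 37917, 29968 and 19230 (adjusted p = 0.071). In both genes 4 of 5 knockin libraries lay above the whole WT group, and the fitted folds were 2.6 for *Krt27* and 2.57 for *Krt28*.

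The cuticle of the inner root sheath, the layer that faces the hair, carries the keratins *Krt26*, *Krt72* and *Krt73* in the human follicle. *Krt72* had 2772, 19621, 229, 24102 and 10110 normalized counts in WT and 58094, 32306, 47280, 38241 and 15408 in *Zfp36*ΔARE skin. *Krt26* had 2477, 14948, 271, 18481 and 10141 in WT and 41625, 27449, 40013, 28564 and 14853 in *Zfp36*ΔARE skin. These 2 genes had the largest fitted folds of the 10, 3.37 for *Krt72* and 3.29 for *Krt26*, and also the widest spread, with 253-fold and 154-fold between the highest and the lowest library. Their groups overlapped, and their adjusted p values were 0.15 and 0.13, the weakest of the 10 in edgeR. *Krt73* behaved otherwise, with 13980, 21690, 2974, 26166 and 22766 normalized counts in WT and 36317, 38587, 39703, 29775 and 30316 in the knockin. Its groups did not overlap, its fold was the smallest of the 9 structural genes at 1.99, and its adjusted p was 0.099.

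*Krt75*, the type II keratin of the companion layer, had 7653, 17952, 1816, 20086 and 13951 normalized counts in WT and 35906, 28138, 37410, 30970 and 19296 in *Zfp36*ΔARE skin. It came nearest to the threshold of the structural genes (log2 fold change 1.3, SE 0.504, adjusted p = 0.067, edgeR), with overlap at the highest WT and lowest knockin library. *Tchh*, which fills the granules of the sheath and of the hair medulla, had 54462, 190312, 7853, 235431 and 174974 normalized counts in WT against 449682, 377417, 456053, 381581 and 211421. In group means it took the most counts of the 10 genes, reaching 1.65% of a whole library in *Zfp36*ΔARE replicate 1 and only 0.0297% in WT replicate 3. Its fold was 2.83 with an SE of 0.673 on the log2 scale (adjusted p = 0.1), and *Zfp36*ΔARE replicate 5 lay below WT replicate 4.

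*Gata3* differed from the structural genes in both its level and its spread. Its normalized counts were 2666, 3032, 2379, 3632 and 3477 in WT and 4324, 4923, 4190, 4039 and 4100 in *Zfp36*ΔARE skin. The groups did not overlap, and the highest and the lowest of the 10 libraries differed by 2.07-fold, against 13.4-fold or more in each structural gene. The coefficient of variation within WT was 17.4% for *Gata3* and 52.9% to 91.2% for the others, and within *Zfp36*ΔARE skin 8.25% and 12.2% to 42.0%. The rise of *Gata3* had a log2 fold change of 0.51 with an SE of 0.116. *Gata3* is also made outside the sheath, in the interfollicular epidermis and in lymphoid cells, and whole skin cannot separate these sources. For all 10 genes, fewer cells of a type and less RNA per cell cannot be told apart in such samples.

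Together the 10 genes took 0.972%, 2.28%, 0.159%, 2.72% and 2.28% of all counts in WT replicates 1 to 5. In *Zfp36*ΔARE replicates 1 to 5 the share was 4.77%, 4.2%, 4.68%, 3.97% and 2.89%. Every knockin library thus gave more of its counts to these genes than any WT library, and the nearest values were 2.89% and 2.72%.

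Per kb of the gene length given in the count table, the order of the genes by their mean over all libraries was led by *Krt71*, with group means of 57876 in WT and 137769 normalized counts per kb in *Zfp36*ΔARE skin, followed by *Krt25* (43695 and 102807), *Krt27* (27874 and 72495) and *Tchh* (22773 and 64439). Each of these stood above the next in all 10 libraries. The middle of the order was less firm, since *Krt72* stood above *Krt28* in 6 of 10 libraries, *Krt28* above *Krt73* in 6 of 10, and *Krt26* above *Krt75* in 6 of 10. *Gata3* was lowest, at 945 and 1342 normalized counts per kb. Among *Zfp36*ΔARE libraries, only *Krt75* and *Gata3* had ranges that were separate from those of their neighbour in the order.

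**Figure D2:**
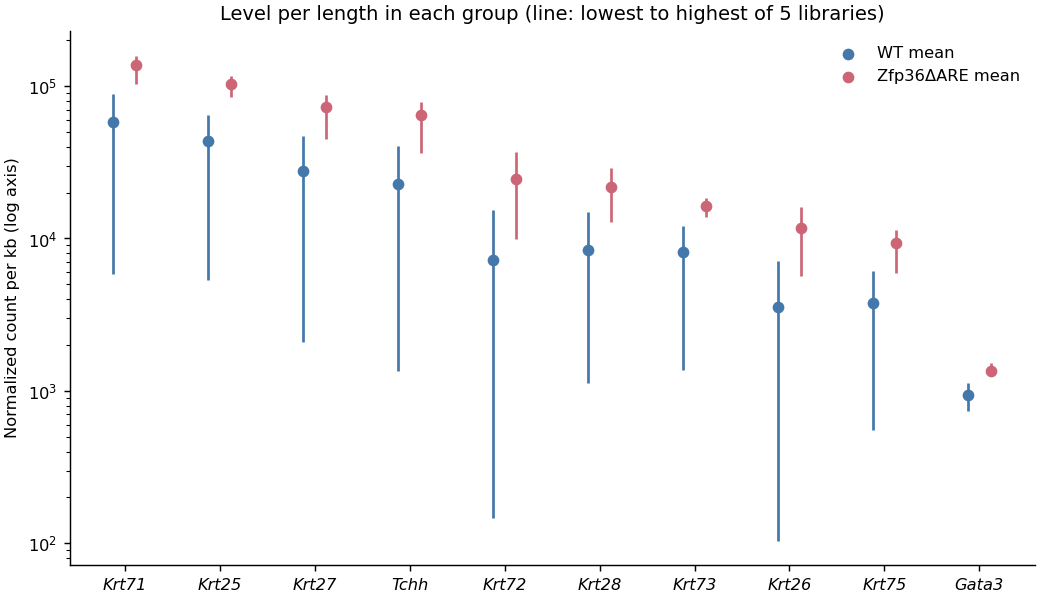
Level of each gene as normalized count per kb of gene length (log axis), with a point at the mean of each group and a line from the lowest to the highest of its 5 libraries. The order runs from Krt71 to Gata3, and the WT lines reach far lower than the Zfp36ΔARE lines in the 9 structural genes.

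Within a library the structural genes kept near-fixed ratios in part. Per 100 counts of *Krt71*, the libraries held 52.8 to 69.3 counts of *Krt25*, 7.59 to 13.4 of *Krt28* and 7.74 to 14.2 of *Krt75*, with both groups inside these ranges. *Krt72* and *Krt26* did not keep to *Krt71*: *Krt72* stood at 3.54 and 1.8 per 100 in WT replicates 1 and 3 and at 5.61 to 17.9 in the other 8 libraries. For *Krt26* the same libraries had 3.17 and 2.12 against 5.63 to 12.9 elsewhere. *Tchh* was also lowest against *Krt71* there, with 69.6 and 61.5, and 94.6 to 139 in the rest. *Krt73* went the other way, with its highest ratios in WT replicate 3 (23.3) and WT replicate 1 (17.9) and 10.2 to 13.6 elsewhere. The libraries with the least sheath mRNA thus also had another mix of it, with less *Krt72*, *Krt26* and *Tchh* and more *Krt73* for each count of *Krt71*.

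**Figure D3:**
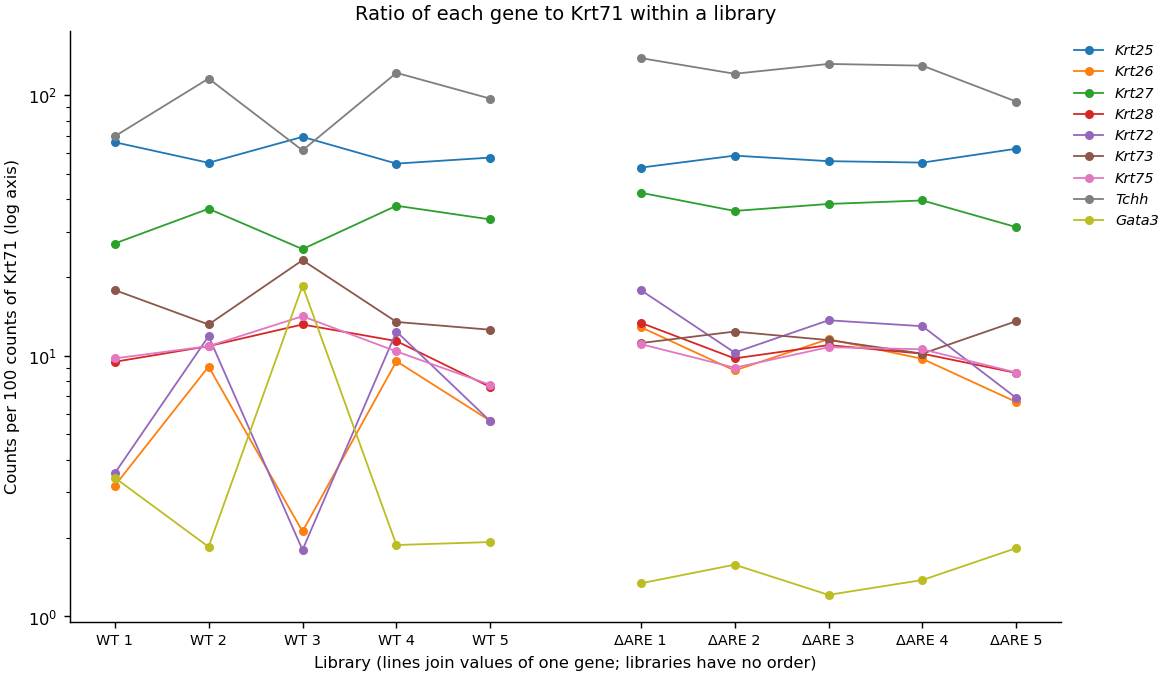
Counts of each gene per 100 counts of Krt71 within each library (log axis), with lines that join the values of a gene. Krt72 and Krt26 drop and Krt73 and Gata3 climb in WT replicates 1 and 3, while Krt25 stays between 52.8 and 69.3.

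The ratio of *Gata3* to *Krt71* was the only one that did not overlap between the groups, at 1.85 to 18.6 per 100 counts in WT and 1.21 to 1.83 in *Zfp36*ΔARE skin. Its direction is the reverse of that of *Gata3* itself, since the fitted difference was 0.51 for *Gata3* and 1.25 for *Krt71* on the log2 scale. Across all 10 libraries, the log2 normalized counts of the 9 structural genes correlated with each other at r from 0.97 to 1.0 over 36 pairs, and at 0.74 to 1.0 over the 8 libraries without WT replicates 1 and 3. *Gata3* correlated with them at 0.86 to 0.89 over 10 libraries and 0.56 to 0.92 over 8. These are descriptions of 10 points that share the genotype groups and the spread of the WT libraries.

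The genes whose pattern over the 10 libraries was most like the mean of *Krt25*, *Krt27*, *Krt28*, *Krt71* and *Tchh* were sought among 13681 genes whose normalized counts averaged 50 or more. They were *Padi3* (r = 0.998), a deiminase that acts on trichohyalin, the calpain protease gene *Capn8* (0.998), *Crnn* (0.996), which belongs to the same fused S100 family as *Tchh*, *Prr9* (0.995) and the cathepsin gene *Ctse* (0.995). In the 8 libraries without WT replicates 1 and 3 their correlations were 0.956 to 0.991. *Capn8*, for instance, had 592, 1676, 86.6, 1781 and 1397 normalized counts in WT and 3622, 3264, 3272, 2798 and 2193 in *Zfp36*ΔARE skin. *Ptpn11*, which encodes the phosphatase SHP2, was most like *Gata3* (0.991), followed by *Xpo5* (0.986), *Zfp59* (0.986), *Lsr* (0.984) and *Pprc1* (0.983). No gene stood in both groups of 5.

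The enzymes that harden trichohyalin were taken next. Of 7 crosslinking and deimination enzymes tested, 2 were called higher and 0 lower, 3 passed the adjusted p alone, and the median log2 fold change was 1.27. For this list and those below, 1.67% of all tested genes were called higher and 15.3% passed the adjusted p as higher. *Tgm3*, the transglutaminase that crosslinks trichohyalin and keratin, had 656, 2483, 815, 2784 and 1868 normalized counts in WT and 6010, 5545, 10997, 6107 and 3742 in *Zfp36*ΔARE skin. Its groups did not overlap, and it rose with a log2 fold change of 1.91 (SE 0.434, adjusted p = 0.012, edgeR). *Padi4*, a deiminase also found in myeloid cells, rose with a log2 fold change of 1.41 (SE 0.377, adjusted p = 0.02), and its groups overlapped. *Tgm1* passed the adjusted p at a log2 fold change of 0.51 (adjusted p = 0.024), without reaching 2-fold. *Padi3*, the closest gene in pattern, had 539 normalized counts in WT replicate 3 and 3595 to 13037 in the other WT libraries, against 13459 to 20836 in the knockin (log2 fold change 1.27, adjusted p = 0.13). *Padi1* had 1.57 (adjusted p = 0.099, edgeR). The other members of the list were lower, *Padi2* at -1.14 (adjusted p = 0.076) and *Tgm5* at -0.35 (adjusted p = 0.14).

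Among 5 tested relatives of *Tchh* in the fused S100 family, 0 were called in either direction and 1 passed the adjusted p as lower. Over all 15543 tested genes, 2962 passed as lower. *Flg2*, a gene of the cornified epidermis, fell at a log2 fold change of -0.76 (adjusted p = 0.015, edgeR). *Tchhl1* and *Crnn* had 1.83 (adjusted p = 0.14) and 1.6 (adjusted p = 0.11), *Rptn* had 0.33 (adjusted p = 0.68) and *Hrnr* -0.59 (adjusted p = 0.1). *Tchhl1* had the wide WT spread of *Tchh*, with 143 normalized counts in WT replicate 3 and 10774 to 13189 in WT replicates 2, 4 and 5.

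Of 13 regulators of the follicle lineages, 5 were called higher and 0 lower, 8 passed the adjusted p as higher, and all 13 had fitted values above WT with a median of 0.67. *Msx2*, a homeobox gene of the hair matrix, had 1195, 1502, 361, 1950 and 2164 normalized counts in WT and 3683, 4632, 4866, 3227 and 3611 in *Zfp36*ΔARE skin. It rose with a log2 fold change of 1.48 (SE 0.376, adjusted p = 0.016, edgeR), with no overlap. *Dlx3*, whose product drives matrix differentiation, had 4029, 4940, 1589, 6363 and 6731 in WT and 10809, 12247, 12147, 9301 and 8742 in *Zfp36*ΔARE skin (log2 fold change 1.17, adjusted p = 0.02). *Foxn1*, the gene mutated in nude mice, *Hoxc13*, a regulator of hair keratins, and *Lef1*, a mediator of Wnt signaling, also rose, with log2 fold changes of 1.49 (adjusted p = 0.027), 1.29 (0.024) and 1.16 (0.024). *Cux1*, whose loss disturbs the inner root sheath in mice, passed the adjusted p at 0.67 (adjusted p = 0.017), below 2-fold. WT replicate 3 was the lowest library in each of these 6 genes as well. Over the 7 lists of related genes together 11 genes were called, and 4 without WT replicate 1 or without *Zfp36*ΔARE replicate 3 and 5 without *Zfp36*ΔARE replicate 2.

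**Figure D4:**
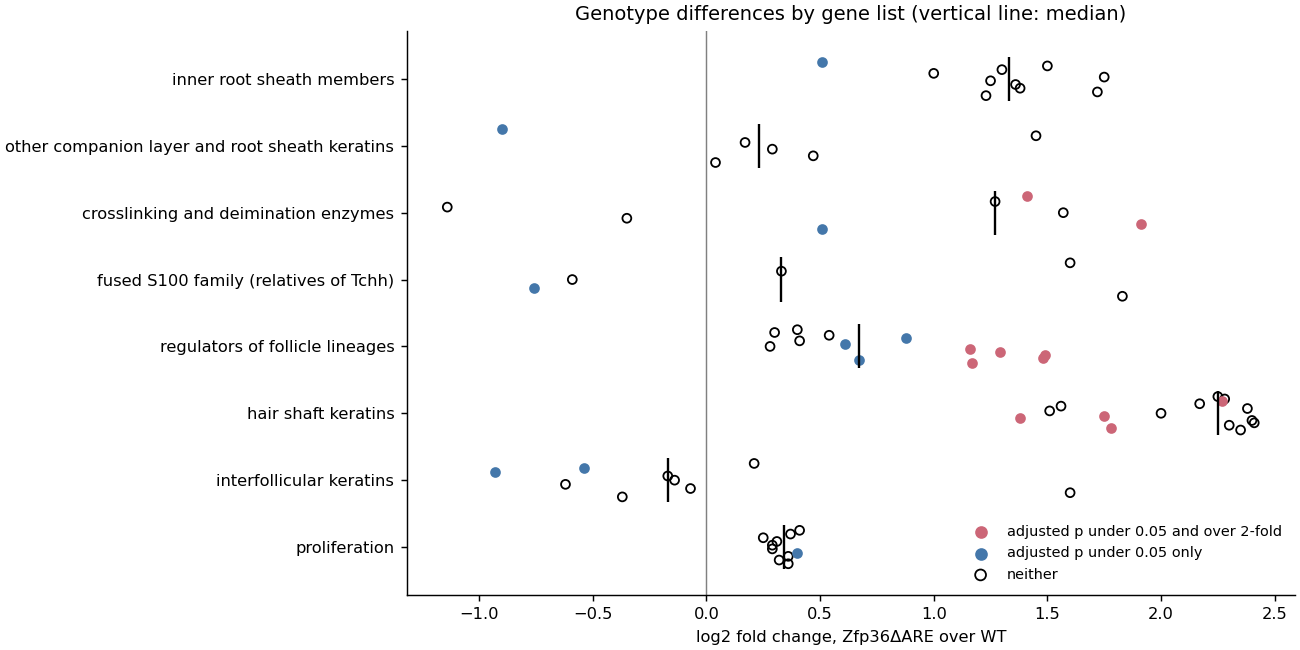
log2 fold change, Zfp36ΔARE over WT, of each gene in the 10 inner root sheath and companion layer genes and in 7 other lists, with a vertical line at each list's median. The inner root sheath genes lie between 0.51 and 1.75 and the hair shaft keratins between 1.38 and 2.41, while the interfollicular keratins lie around a median of -0.17.

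Keratins outside the 10 genes did not share one pattern. Of 6 other keratins of the companion layer and root sheaths, 0 were called and 1 passed the adjusted p, as lower. *Krt6a*, *Krt6b* and *Krt16* had log2 fold changes of 0.04, 0.47 and 0.29 (adjusted p = 0.97, 0.72 and 0.78, edgeR), with overlapping groups. *Krt74*, 1 of these 6, had 41.5 to 964 normalized counts in WT and 1272 to 1814 in the knockin (log2 fold change 1.45, adjusted p = 0.078, edgeR). Its groups did not overlap, and WT replicates 3 and 1 were its lowest libraries, as for the structural genes among the 10. *Krt17*, of the outer root sheath, had 36501 to 87517 normalized counts in WT and 41837 to 89167 in the knockin (log2 fold change 0.17, adjusted p = 0.65, edgeR), and *Krt79*, of the upper follicle, fell at -0.9 (adjusted p = 0.015). Of the 15 hair shaft keratins, which fill the hair inside the sheath, 4 were called higher (*Krt84*, *Krt32*, *Krt36* and *Krt35*, with log2 fold changes of 2.27, 1.78, 1.75 and 1.38) and 0 lower, with a median of 2.25. *Krt33a* and *Krt86*, the most counted of them, had 2.3 (adjusted p = 0.087) and 2.25 (adjusted p = 0.098). Of 9 interfollicular keratins 0 were called and 2 passed the adjusted p as lower, where 2962 of all 15543 tested genes passed as lower. *Krt10* had -0.62 (adjusted p = 0.068) and *Krt5* -0.07 (adjusted p = 0.8). Of 10 proliferation genes 0 were called and 1 passed the adjusted p as higher, with *Mki67* at 0.36 (adjusted p = 0.1) and *Top2a* at 0.32 (adjusted p = 0.096).

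Hair shaft keratins moved with the inner root sheath genes from library to library. Their score, the mean log2(CPM + 1) of the 15 genes, was 4.72, 7.08, 2.15, 7.45 and 7.38 in WT and 8.53, 8.82, 9.38, 8.43 and 8.17 in *Zfp36*ΔARE skin, lowest in WT replicates 3 and 1, as for the sheath genes. With this score as a second term in the fit, the 9 structural genes had log2 fold changes from -0.55 to -0.07 (adjusted p = 0.6 to 0.94) and *Gata3* 0.22 (adjusted p = 0.33). In that fit 8 of all tested genes were called. The score did not overlap between the groups, so that the score and the genotype cannot be told apart.

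The adjusted p values depended on the test and on the libraries. With all 10 libraries kept, DESeq2 passed 6 of the 10 genes at an adjusted p under 0.05. In that fit 6431 of 15543 tested genes passed in either direction. Among the edgeR fits without a single library, most of the 10 genes passed in the fit without WT replicate 3. Without it, 8 of the 10 genes passed the adjusted p as higher (the 9 structural genes other than *Krt26* and *Krt72*, and *Gata3*), where 11.7% of all tested genes passed as higher in that fit. By the full call 4 were higher, against 1.45% of tested genes. The log2 fold changes of the structural genes were then smaller, from 0.72 to 1.44. Without both WT replicates 1 and 3, 7 of the 10 passed as higher (*Krt25*, *Krt27*, *Krt71*, *Krt73*, *Krt75*, *Tchh* and *Gata3*), where 6.87% of tested genes passed as higher, and 0 were called. Structural log2 fold changes were 0.57 to 1.09 in those 8 libraries and *Gata3* had 0.35 (adjusted p = 0.028, edgeR). Without WT replicate 4, *Krt28* alone of the 10 was called (adjusted p = 0.047), where 2.05% of tested genes were called higher. Both the folds and their SE were thus larger with the low WT libraries in the fit, and these libraries were left out with their low values known.

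**Figure D5:**
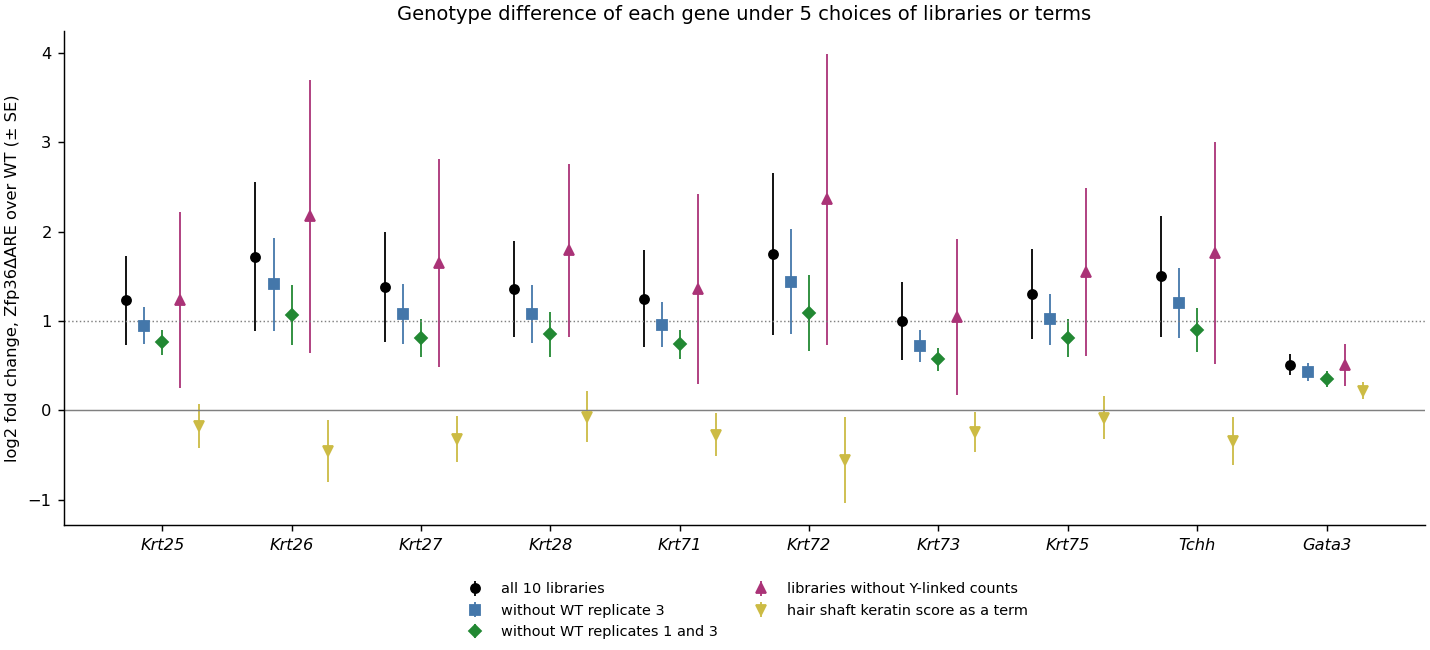
log2 fold change, Zfp36ΔARE over WT, with its SE for each of the 10 genes under 5 choices of libraries or terms in the edgeR fit. Leaving out WT replicates 1 and 3 shrinks both value and SE, the fit on libraries without Y-linked counts widens the SE, and the hair shaft keratin score as a term brings the 9 structural genes to values from -0.55 to -0.07.

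Over the libraries without Y-linked counts, which leave the 5 WT libraries and *Zfp36*ΔARE replicate 1, the log2 fold changes were 1.05 to 2.36 in the structural genes (adjusted p = 0.37 to 0.52) and 0.51 in *Gata3* (adjusted p = 0.33, edgeR), the lone knockin library being assumed to vary like the WT libraries. In this fit 0 genes of the whole table passed the adjusted p and 2572 had an unadjusted p under 0.05. *Zfp36*ΔARE replicate 1 had the highest value of all libraries for *Krt26*, *Krt27*, *Krt28* and *Krt72*, and it lay above the whole WT group in all 10 genes, as it did in 30.5% of all tested genes. Y-linked counts, entered as present or absent in a library, were also fitted as a term over all 10 libraries, and the structural genes had 1.05 to 2.35. Only *Zfp36*ΔARE libraries carry this mark. The genotype difference in that fit therefore again rests on *Zfp36*ΔARE replicate 1 against the WT libraries, and it is not a separate check.

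Other cell types moved with the groups. Of all 15543 tested genes, 1032 were called lower and 260 higher, and 2962 passed the adjusted p as lower. Macrophage markers summed to 10862 to 20859 normalized counts in WT and 5597 to 8713 in *Zfp36*ΔARE skin, with 7 of 8 called lower, and skeletal muscle markers to 195886 to 970991 and 113421 to 253160, with 7 of 8 called lower. The muscle sum was highest in WT replicates 3 (970991) and 1 (503649), the libraries with the least sheath mRNA. Of the adipocyte markers 5 of 7 were called lower (45784 to 93005 against 31621 to 41924), and of the endothelial markers 4 of 6 (4955 to 10771 against 2865 to 3860). Of the sebocyte markers 2 of 6 were called lower (91403 to 214072 against 55776 to 72687), *Scd1* and *Fasn*, which adipocytes also make. In all 3 passed the adjusted p as lower, these and *Awat1* (log2 fold change -0.64, adjusted p = 0.034, edgeR). *Awat2*, *Elovl3* and *Mc5r* had -0.28, -0.41 and 0.22, none past the adjusted p. Of the T cell and innate lymphoid markers 1 of 8 was called lower, *Il1rl1*, and 3 passed the adjusted p as lower. These were *Il1rl1*, *Il7r* (log2 fold change -0.8, adjusted p = 0.031, edgeR) and *Thy1*. The T cell genes *Cd3e*, *Cd3g*, *Cd3d*, *Cd4* and *Cd8a* had log2 fold changes of -0.37, 0.05, 0.03, -0.01 and 0.31, none past the adjusted p. The summed range of all 8 markers, 5064 to 7352 against 2610 to 4129, includes *Thy1*, which other cells make too (-0.94, adjusted p = 0.0046, edgeR). Of the fibroblast markers 0 of 6 were called (158072 to 338990 against 90027 to 260554), but 3 passed the adjusted p as lower. Of the melanocyte markers 5 of 6 were called higher (3901 to 12758 against 12655 to 23248). Of the basal keratinocyte markers 0 of 6 were called (196045 to 318013 against 166689 to 340034), and 2 passed the adjusted p as lower. No marker in these lists was at 0 in any library, and their part in the differences of the sheath genes was not tested.

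Near-identical sequence touched some of the keratins. Of all 50-base windows of the transcripts, 10.9% in *Krt25* and 11.1% in *Krt27* also occurred in another gene, chiefly each other, *Krt28* or *Krt15*. The share was 2.41% in *Krt28*, 1.97% in *Krt71*, 1.32% in *Krt73* and 0.158% in *Krt72*, and 0 in *Krt26*, *Krt75*, *Tchh* and *Gata3*. How reads that match several genes were counted is not given in the sources used here, so the split between *Krt25* and *Krt27* is uncertain to that extent.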

How the data were processed

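Per the study's methods and labels, the authors dropped reads whose mean quality was below 20, mapped to mm10 with STAR 2.5.2b and used featureCounts (Subread 1.5.0-p1) for the counts per gene. The deposited values were raw counts for 24454 genes in 10 libraries, without normalization, at 19595035 to 36419573 counts per library. Annotation, strand and the handling of multimapping reads are not given in the sources used here. The authors used DESeq2. Rows without a gene name (2, with 0.0000738% of counts) were left out.

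The deposited counts were scaled by TMM, filtered with filterByExpr and fitted with the robust quasi-likelihood model of edgeR 4.0.16 (R 4.3.3), with genotype as the only term, and p values were adjusted over 15543 genes by Benjamini-Hochberg. A call needed more than a 2-fold change beside an adjusted p below 0.05. The median biological coefficient of variation was 14.9%. DESeq2 1.42.0 and limma 3.58.1 (voom) were alternatives, with other scalings, filters and terms, a replicate block and fits without each library. The script was tested on simulated data. Groups came from the sample titles. The labels do not tie libraries to animals, so p values measure the spread between these libraries.

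The 10 genes, the lists of related genes and of cell type markers, and the alternatives were chosen with earlier results of these data known. Named were all 10 genes, of each list the called genes (up to 4 by size of change, at a mean of at least 50 normalized counts) and the 2 most counted, and the 5 genes most alike in pattern to the sheath genes and to *Gata3*. *Flg2*, *Lef1*, *Rptn*, *Hrnr*, *Krt6a*, *Krt6b*, *Krt16*, *Krt74*, *Padi1*, *Padi2*, *Tgm5* and the single T cell and sebocyte markers were added after their values were seen. Positions and 3′-UTRs came from GENCODE M21 and promoters from RefSeq (GRCm38.p6), in which all 10 genes matched. Promoter pairs were aligned globally with Biopython 1.88. *Flg* and *Trac*, listed as markers, were not analysed here.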

Additional observations from a re-analysis of the deposited data

Results flagged for a closer look

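The counts of *Gata3* per 100 counts of *Krt71* reached 18.6 in WT replicate 3, against 1.85 to 3.41 in the other 4 WT libraries. The gap of this library to its nearest neighbour was 0.907 of the group's whole range, above Dixon's critical value of 0.71 for 5 samples. Of 38 groups of 5 values examined in this way, 1 stood out so far, where chance gives about 1.9. *Gata3* itself had 2379 normalized counts in this library and *Krt71* had 12766, both the lowest of the 10 libraries. No explanation was tested.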

How the results depend on the processing

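The 10 genes gave 230 refitted log2 fold changes over 23 alternatives, of which 198 kept their direction and their side of the threshold, 19 newly passed it, 4 no longer passed it and 9 changed sign. The sign changes all came with the hair shaft keratin score as a term (*Krt25* -0.17, *Krt26* -0.45, *Krt27* -0.32, *Krt28* -0.07, *Krt71* -0.27, *Krt72* -0.55, *Krt73* -0.24, *Krt75* -0.08, *Tchh* -0.34), and the losses were those of *Gata3* with that term, with Y-linked counts as a term (adjusted p = 0.21), in libraries without Y-linked counts, and against 1.5-fold with glmTreat. Called among the 10 genes were 0 in the fit as reported, 4 with DESeq2, 1 by adjusted p alone and 0 to 4 without single libraries. Genes with an adjusted p under 0.05 were 1 as reported, 6 with DESeq2, 7 without WT replicates 1 and 3, 1 to 8 without single libraries, and 0 in libraries without Y-linked counts, with either term or with glmTreat. Called genes in the 7 lists of related genes were 11 as reported, 21 with DESeq2, 4 to 15 without single libraries (fewest without WT replicate 1 or *Zfp36*ΔARE replicate 3), and 0 in those same 4 fits. Over all genes 1292 were called as reported, 526 without WT replicates 1 and 3, 839 to 1521 without single libraries (lowest without WT replicate 3), 106 with glmTreat, 8 with the hair shaft term, and 0 in libraries without Y-linked counts or with Y-linked counts as a term, where 2572 and 3382 genes had an unadjusted p under 0.05. The cause of these shifts was not tested. Libraries with the same replicate number did not deviate together (r from -0.19 to 0.09, and 0 of 5 WT libraries correlated best with their own number). The numbers thus gave no sign of a pairing, but 5 libraries per group cannot exclude one. With the replicate block 983 genes were called, 1 in the lists of related genes and 0 of the 10 genes, and *Gata3* kept its call by adjusted p (0.52, adjusted p = 0.038). Depth did not limit the 10 genes, of which the lowest value was 229 normalized counts.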
